A study of Mus musculus with 62 samples.

Results

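The 9 genes Dbp, Tef, Hlf, Nfil3, Bhlhe40, Bhlhe41, Ciart, Rora and Rorb encode transcription regulators that stand downstream of the circadian clock. They were chosen by name, as the PAR bZIP factors with their repressor, the Bhlhe repressors with Ciart, and the ROR nuclear receptors, out of 47643 gene symbols measured in mouse cerebellum. All 9 were in the deposited table, and all 9 passed the filter on low values, a mean of at least 1 TPM over the 62 libraries. TPM give a gene's share of all transcripts in a library, per length of transcript and scaled to a total of 1e+06. The filter left 14399 genes for testing.

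In each cell the clock is a feedback loop. The activators CLOCK and BMAL1, the product of Arntl, bind E-boxes (CACGTG) and drive the Per and Cry genes, whose proteins inhibit them. Such E-boxes also drive several of the output factors. DBP, TEF and HLF activate genes through D-boxes, and NFIL3 represses through the same element. BHLHE40 and BHLHE41, also called DEC1 and DEC2, and CIART, also called CHRONO, repress CLOCK and BMAL1 at E-boxes. ROR alpha and ROR beta activate through ROR elements, among others that of Arntl. ROR alpha has a further role in this tissue: staggerer mice, which lack it, fail to form a normal Purkinje cell layer and are ataxic.

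Cerebellum was taken from female mice that were 2 months old when they received an injection of melanoma cells that cause cachexia (CAC), of melanoma cells that do not (NCAC), or a mock injection (mock). Cachexia is the wasting of muscle and fat that can accompany a tumour. Tissue was taken at 2, 4, 6 and 8 weeks (wk) after injection, and each of the 12 groups of treatment and week held 5 libraries, except CAC at 8 wk, which held 7. No transgene, deletion or drug is named for any group. The strain cannot be stated, since the sample fields name C57BL6/J and the series text names NCI Ath/nude mice, and the labels name neither melanoma line. The hour of day at which tissue was taken is not given in the sources used here. A difference in hour between groups can therefore not be told apart from one of treatment or week. Replicates were described as biological, but the labels name no animals, so the p-values measure the spread between these samples.

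The libraries carried the markers of cerebellum. All 8 Purkinje cell markers (Rora is one of them) and all 8 granule cell markers passed the filter, against 4 of 9 of forebrain and midbrain, 1 of 8 of brainstem, and 0 of 5 of pineal and retina. TPM keep no sequencing depth, so the depth behind each value is unknown. Mitochondrially encoded transcripts took 17.1% to 22.2% of the TPM. Choroid plexus markers varied between libraries of the same group, and their values are given where they move with a result.

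Per length of transcript, Tef, Dbp and Rora were the most abundant members. Over the 62 libraries Tef averaged 196.1 TPM, Dbp 175.5 and Rora 122.4. Bhlhe40 averaged 93.5 TPM and Hlf 75.6. A lower group was formed by Bhlhe41 at 30.3, Ciart at 27.0 and Nfil3 at 22.7 TPM, and Rorb was lowest at 3.31. Single libraries of Dbp (80.8 to 278 TPM) overlapped those of Tef (142 to 248) and of Rora (106 to 135), while every Tef library lay above every Rora library. Libraries also overlapped among Bhlhe41 (22.5 to 39.7), Ciart (12.5 to 45.3) and Nfil3 (16.2 to 28.6). Every library of Rorb, at 2.65 to 4.49 TPM, lay below every library of the other members.

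**Figure D1:**
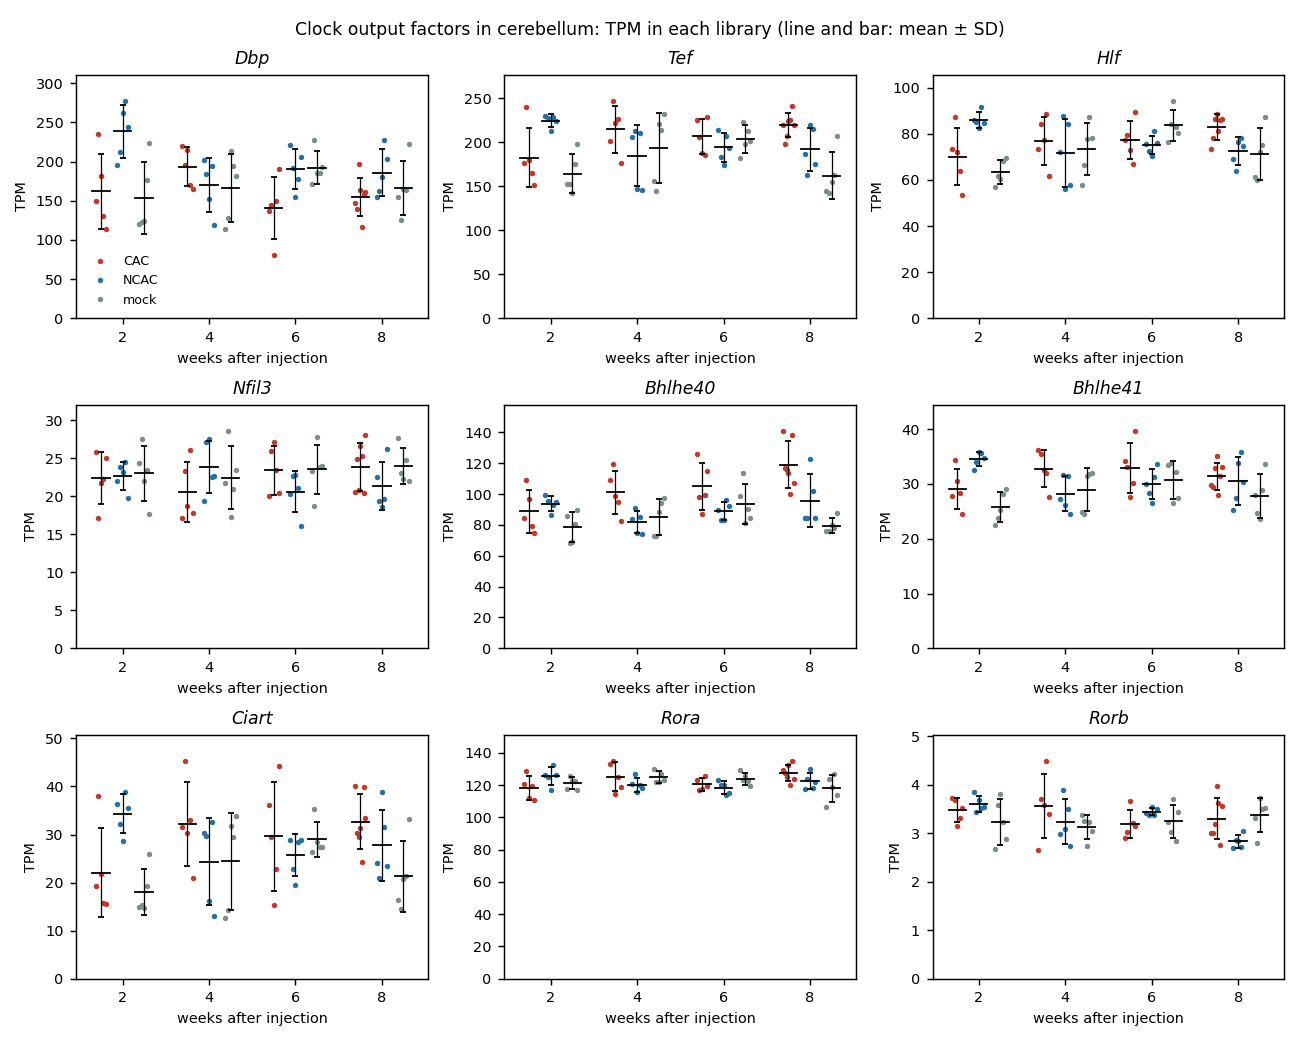
TPM of each member (1 panel per gene, y axis from 0) by weeks after injection, 1 point per library, with CAC, NCAC and mock side by side and the mean ± SD as a bar. Bhlhe40 stands highest in CAC at 8 wk, at 119 ± 15.3 TPM, while Rora stays between 106 and 135 TPM in every library.

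The members differed in how far libraries of the same group lay apart. Ciart had the widest spread, with a within-group SD of 0.41 on the log2(TPM + 1) scale, at percentile 97.0 of all tested genes, followed by Dbp with 0.30, at percentile 93.5. Nfil3, Tef, Hlf, Bhlhe40 and Bhlhe41 had SDs between 0.16 and 0.20, and Rorb had 0.12. Rora had an SD of 0.07, at percentile 14.2, below the median of 0.11 over all tested genes. A difference of a given size was therefore easier to detect for Rora than for Ciart.

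Promoters can hold the elements through which the clock drives a gene, so the members' promoters with an E-box or a ROR element are shown. RefSeq's promoter table (build GRCm38.p6, from 250 bases before to 50 after a gene's start) held 10 promoters of 8 members, all but Bhlhe40. The E-box CACGTG, which reads the same on both strands, stood in 4 of the 10, against 7.15% of the 32851 promoters in the table. These were both promoters of Tef, that of Bhlhe41, and that of Ciart with 3 copies, at positions -116, -58 and -44 from the start. The stretches below run 5′ to 3′ on the gene's strand, with the element in capitals.
Ciart, chr3:95882237-95882374, minus strand: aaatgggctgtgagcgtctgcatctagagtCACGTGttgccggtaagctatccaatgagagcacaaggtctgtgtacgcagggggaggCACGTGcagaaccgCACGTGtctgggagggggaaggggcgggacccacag
Tef, upstream start, chr15:81802534-81802563, plus strand: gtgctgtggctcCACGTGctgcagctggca
Tef, downstream start, chr15:81811246-81811311, plus strand: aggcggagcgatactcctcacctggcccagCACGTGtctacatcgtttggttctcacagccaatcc
Bhlhe41, chr6:145865538-145865603, minus strand: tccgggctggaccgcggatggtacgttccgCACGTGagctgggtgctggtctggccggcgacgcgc
Nfil3, chr13:52981040-52981063, minus strand: ggcgctcggaacTGACCTActaac

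The capitals in Nfil3 are a ROR element on the opposite strand, where they read TAGGTCA. ROR elements were searched as TAGGTCA and TGGGTCA on both strands and stood in 1 of the 10 promoters, against 6.45% of the table. The E'-box CACGTT stood in 1, that of Rorb, against 4.68%. D-boxes, searched as TTATGTAA and TTACGTAA, stood in 0 of 10, against 1.06%. A glucocorticoid element, searched as GNACA and TGTNC with 3 bases between them, stood in 0 of 10, against 0.475%. A match describes the letters in these windows and does not show a bound site. All 30 bases shown for Tef at its upstream start and all 24 shown for Nfil3 lie in exons annotated by GENCODE M21. Of the stretches of Bhlhe41 and Ciart 21 and 15 bases do.

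The first comparison was CAC against mock at 8 wk, the last week sampled. Of the 9 members, 4 rose and 0 fell: Bhlhe40, Tef, Ciart and Rora. Over all genes tested by limma, 20.8% passed the threshold of an adjusted p of 0.05 in either direction, 13.4% higher and 7.34% lower. The median log2 fold change was 0.18 over the members and 0.02 over all genes. Bhlhe40 rose 1.48-fold and Tef 1.36-fold, and both passed under all 10 other settings and without any 1 library. The calls of Ciart and Rora were less stable, and those of Dbp, Hlf, Nfil3, Bhlhe41 and Rorb did not pass.

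Bhlhe40 (ENSMUSG00000030103.11, chr6:108660629-108666925, plus strand, GRCm38), a repressor at E-boxes, was at 100.3 to 141 TPM in the 7 CAC libraries at 8 wk, with a median of 116. In mock at 8 wk it was at 75.9, 75.9, 80.1, 77.9 and 88.0 TPM. The CAC and mock libraries did not overlap, which held in the higher direction for 3.24% of all tested genes. The log2 fold change was 0.57 ± 0.10 (SE; adjusted p = 5.42e-05 in limma). In CAC the level averaged 88.9 ± 13.9 TPM at 2 wk, 101 ± 14.0 at 4 wk, 105 ± 15.2 at 6 wk (SD, n = 5 each) and 119 ± 15.3 at 8 wk (SD, n = 7). In mock it averaged 78.8 ± 9.61, 85.2 ± 11.7, 93.6 ± 13.0 and 79.6 ± 5.05 TPM at the same weeks (SD, n = 5 each). The means of CAC thus stood in the order of the weeks, and those of mock did not.

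Tef (ENSMUSG00000022389.15, chr15:81802421-81826863, plus strand), a PAR bZIP activator, was at 198 to 241 TPM in CAC at 8 wk, with a median of 220.3. In mock at 8 wk it was at 144, 142, 155, 163 and 207 TPM. Mock replicate 5 was the only mock library of that week to reach the CAC range, and the other 4 lay below every CAC library. Of the 12 groups, mock at 8 wk had the lowest Tef mean. Tef in mock averaged 164 ± 22.5 TPM at 2 wk, 193 ± 40 at 4 wk, 204 ± 15.8 at 6 wk and 162 ± 26.55 at 8 wk (SD, n = 5 each). Mock libraries reached 232 TPM at 4 wk and 223 at 6 wk, inside the range of CAC at 8 wk. The log2 fold change was 0.45 ± 0.11 (SE; adjusted p = 0.00224 in limma), and 0.54 without mock replicate 5, the highest value on leaving out any 1 library.

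Ciart (ENSMUSG00000038550.10, chr3:95878503-95882251, minus strand), which binds BMAL1 and represses it, was at 24.3 to 40.1 TPM in CAC at 8 wk, with a median of 31.3. In mock at 8 wk it was at 16.4, 14.6, 20.7, 21.3 and 33.3 TPM. The 4 lower mock libraries lay below every CAC library, and mock replicate 5 lay inside the CAC range. The log2 fold change was 0.64 ± 0.24 (SE; adjusted p = 0.0453 in limma), the largest of the 9 members, but close to the threshold. The call ended under 5 of 10 other settings and without any 1 of 9 of the 12 libraries (CAC replicates 1, 2, 4, 6 and 7 and mock replicates 1 to 4), with log2 fold changes of 0.52 to 0.65 and adjusted p from 0.0551 to 0.128.

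Rora (ENSMUSG00000032238.17, chr9:68653786-69388246, plus strand), the ROR factor of Purkinje cells, moved little. It was at 120.4 to 134.9 TPM in CAC at 8 wk, with a median of 128, against 106, 124, 119, 127 and 114 TPM in mock, and the ranges overlapped. Of the 12 groups, mock at 8 wk had the lowest Rora mean, 118 TPM, and CAC at 8 wk the highest, 127.7 TPM. The log2 fold change was 0.11 ± 0.04 (SE; adjusted p = 0.0291 in limma), which is 1.08-fold. The call ended under 5 of 10 other settings and without CAC replicate 4 (adjusted p = 0.0594), CAC replicate 6 (0.0774), mock replicate 1 (0.184) or mock replicate 5 (0.0751). Without mock replicate 1, the lowest Rora library of all 62, the log2 fold change was 0.08. With mitochondrially encoded genes removed it was 0.08 as well (adjusted p = 0.15).

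The other PAR bZIP factors did not pass at 8 wk. Hlf (chr11:90336536-90390895, minus strand) was at 73.5 to 88.6 TPM in CAC, with a median of 86.1, and at 61.1, 60.1, 72.1, 75.3 and 87.4 TPM in mock (log2 fold change 0.23 ± 0.10 SE, adjusted p = 0.0934 in limma). Mock replicate 5 was again the highest of its group, and without it the log2 fold change of Hlf was 0.31 (adjusted p = 0.0306). Dbp was at 117 to 197 TPM in CAC, with a median of 159, and at 155, 126, 165, 164 and 222 TPM in mock. Its log2 fold change was -0.09 ± 0.17 (SE, adjusted p = 0.749), with a 95% interval of -0.44 to 0.25. Among the 3 PAR bZIP activators, Tef was thus the 1 called.

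The remaining members did not pass either. Nfil3 (chr13:52967209-52981073, minus strand), the repressor that competes with the PAR bZIP factors, averaged 23.8 ± 3.18 TPM in CAC (SD, n = 7) and 24.0 ± 2.35 in mock (SD, n = 5), with a log2 fold change of -0.02 and a 95% interval of -0.25 to 0.22. Bhlhe41 (chr6:145858243-145865558, minus strand), the close relative of Bhlhe40, averaged 31.4 ± 2.50 TPM in CAC and 27.8 ± 3.96 in mock (log2 fold change 0.18, 95% interval -0.004 to 0.36, adjusted p = 0.158 in limma). Rorb (chr19:18930605-19111196, minus strand) averaged 3.31 ± 0.432 TPM in CAC and 3.38 ± 0.353 in mock (log2 fold change -0.03, adjusted p = 0.844).

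**Figure D2:**
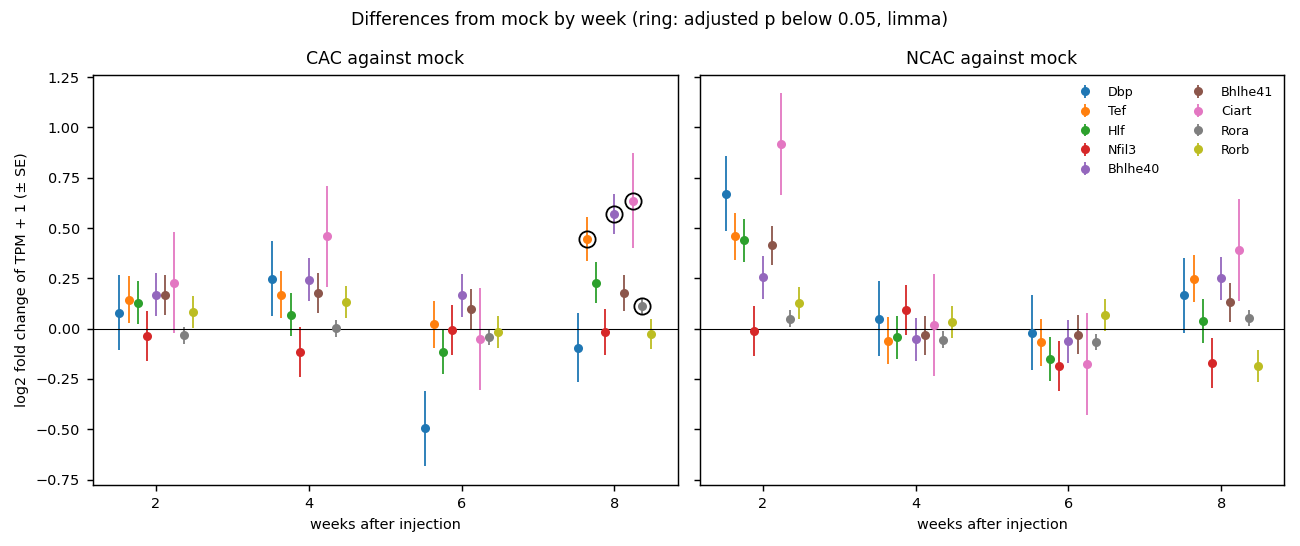
Log2 fold change of each member against mock by weeks after injection, for CAC and NCAC, with bars of 1 SE, and a ring round each value with an adjusted p under 0.05. The 4 rings are those of Bhlhe40, Tef, Ciart and Rora in CAC at 8 wk, and the highest NCAC value is that of Ciart at 2 wk, 0.92.

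Other genes of the pathway were followed in lists. Of 13 core clock genes, 7 rose and 0 fell in CAC against mock at 8 wk, with a median log2 fold change of 0.27. The 4 with the smallest p were Cry2 (0.32 ± 0.07 SE), Per3 (0.46 ± 0.10) and Cry1 (0.48 ± 0.14), inhibitors of the loop, and Csnk1e (0.25 ± 0.07), a kinase for the PER proteins, with adjusted p from 0.000515 to 0.012 in limma. Of the known targets of PAR bZIP factors 6 of 7 were tested and 2 rose, Per1 (0.73 ± 0.26) and Per3, both of which are also core clock genes. Per2 was at 0.75 ± 0.36 (adjusted p = 0.122) and the cytochrome P450 reductase gene Por at 0.07 ± 0.04 (adjusted p = 0.246). Of 5 known targets of ROR alpha in Purkinje cells, 0 passed the adjusted threshold in limma and 0 had an unadjusted p under 0.05, and their median was -0.05, while Rora itself was called.

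Glucocorticoid-responsive genes also differed in CAC against mock at 8 wk. Of 16, 15 rose and 0 fell, with a median log2 fold change of 1.42, among them the metallothioneins Mt1 (1.52) and Mt2 (1.72), the stress gene Ddit4 (0.81) and the kinase gene Sgk1 (1.21). The mean of the list on the log2(TPM + 1) scale was 5.42 in CAC replicate 3 and 6.13 to 6.84 in the other 6 CAC libraries, against 4.68 to 5.42 in mock. CAC replicate 3 and mock replicate 5 thus had list means that were equal to 2 decimals. In CAC replicate 3 and mock replicate 5, in that order, Bhlhe40 was at 116 and 88.0 TPM, Rora at 125 and 114, and Tef at 208 and 207. Hlf was at 86.4 and 87.4 TPM, Bhlhe41 at 32.9 and 33.7, Ciart at 29.5 and 33.3, and Dbp at 197 and 222. Nfil3 was at 20.8 and 22.1 TPM, and Rorb at 3.19 and 3.52. A single pair of libraries does not show whether a member follows the list. Of 6 oligodendrocyte markers 5 fell, with list means of 6.65 to 7.07 in CAC and 7.09 to 7.63 in mock, and of 6 microglia markers 4 fell. In tissue, fewer cells of a type and less RNA per cell cannot be told apart. Of 8 Purkinje markers 1 rose, Rora itself, and 1 fell, and 0 of 8 choroid plexus markers passed. The part of these genes in the result was not tested.

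Set against the other melanoma at 8 wk, 1 of the 9 members was called, Bhlhe40. That is a share no higher than the 11.8% of all genes called in either direction, 7.76% being higher. In NCAC at 8 wk Bhlhe40 was at 84.5, 84.8, 123, 102 and 84.4 TPM. NCAC replicates 3 and 4 lay inside the CAC range of 100.3 to 141, and the other 3 lay below it and above 4 of the 5 mock libraries. The log2 fold change of CAC over NCAC was 0.32 ± 0.10 (SE; adjusted p = 0.0272 in limma). The call ended with median-of-ratios scaling (adjusted p = 0.0559), without mitochondrially encoded genes (0.0551), with the replicate number as a block (0.093; CAC replicates 6 and 7 then have no partner) and with only the groups compared in the fit (0.0999). Leaving out 1 library ended it for CAC replicates 1 and 6 and for NCAC replicates 1, 2 and 5, with log2 fold changes of 0.28 and adjusted p from 0.0727 to 0.0971. In the same comparison 14 of 16 glucocorticoid-responsive genes rose and 0 fell (median log2 fold change 1.253), with list means of 5.42 to 6.84 in CAC and 4.78 to 5.52 in NCAC. Of 6 oligodendrocyte markers 3 fell and 0 rose, with list means of 6.65 to 7.07 in CAC and 7.17 to 7.43 in NCAC, and of 6 endothelial markers 3 rose and 1 fell. Their part in the result was not tested.

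NCAC against mock at 8 wk gave 0 of 9 members called, with 0 of 14399 genes called in all (0%) and 7.21% with an unadjusted p under 0.05. Unadjusted, 3 members were under 0.05. The log2 fold changes of Tef and Bhlhe40 were 0.25 ± 0.12 and 0.25 ± 0.11, and that of Rorb was -0.19 ± 0.08 (SE; adjusted p from 0.668 to 0.683 in limma). CAC and NCAC at 8 wk were set against the same mock libraries. For Tef the difference of CAC over NCAC was 0.20 with a 95% interval of -0.02 to 0.42, so the rise of Tef over mock is not shown to differ between the melanomas.

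Bhlhe40 also differed between the last and the first week in CAC, and Rora by a call that most other settings ended. In CAC at 8 wk against CAC at 2 wk 2 of 9 members rose and 0 fell, where 17.9% of all genes were called, 8.26% higher. Bhlhe40 had a difference of 0.42 ± 0.10 on the log2 scale (SE; adjusted p = 0.00191 in limma), which held without any 1 library. Rora had 0.11 ± 0.04 (adjusted p = 0.0389), a call that ended without any 1 of 8 of the 12 libraries (CAC at 2 wk replicates 1, 3, 4 and 5, CAC at 8 wk replicates 1, 2, 4 and 6), at adjusted p from 0.0519 to 0.152. It also ended under 6 of 10 other settings, with adjusted p up to 0.12. Without CAC at 2 wk replicate 2, which was the highest of its group for Tef, Hlf and Ciart, 5 of 9 members were called, with Tef at 0.38, Hlf at 0.34 and Ciart at 0.82. For Ciart the call was also made without CAC at 8 wk replicate 5 (0.67, adjusted p = 0.0408).

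Whether the difference between CAC and mock changed from week to week was tested directly, as 8 wk minus 2 wk. It passed for 0 of 9 members in limma, with 1.55% of all genes called, and 2 of 9 members and 16.5% of genes were under an unadjusted p of 0.05. The estimate for Bhlhe40 was 0.40 ± 0.15 (SE; adjusted p = 0.143 in limma) and that for Rora 0.15 ± 0.06 (adjusted p = 0.168). The rise of Bhlhe40 over mock at 8 wk is thus not shown to differ from its value at 2 wk, 0.17 ± 0.11.

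At 2 wk the largest differences of the members were those of NCAC over mock. In NCAC against mock at 2 wk 0 of 9 passed the adjusted threshold in limma, and only 2 of all 14399 genes did (0.0139%). By unadjusted p under 0.05, 6 of 9 members were higher and 0 lower, against 3.27% and 2.15% of all genes. They were Ciart (log2 fold change 0.92 ± 0.25 SE), Dbp (0.67 ± 0.19), Tef (0.46 ± 0.12), Hlf (0.44 ± 0.11), Bhlhe41 (0.41 ± 0.10) and Bhlhe40 (0.26 ± 0.11), with adjusted p from 0.228 to 0.88. Nfil3 was at -0.01, Rora at 0.05 and Rorb at 0.13. The median over the 9 members was 0.41, and that over all genes 0.01. The 6 higher members correlate with each other within groups (Pearson's r from 0.521 to 0.917 over the 62 libraries), so they do not count as 6 separate results.

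For 4 of the 6 correlated members, Ciart, Tef, Hlf and Bhlhe41, the NCAC and mock libraries at 2 wk did not overlap, where 0.938% of all genes stood apart in the higher direction. Ciart was at 36.4, 32.1, 28.7, 38.9 and 35.6 TPM in NCAC, against 15.0, 15.3, 14.8, 19.3 and 25.9 TPM in mock. Tef was at 230.1, 228, 213, 229 and 225 TPM in NCAC, against 153, 153, 142, 175 and 198 TPM in mock. Mock replicate 5 was the nearest to NCAC for both genes. Hlf was at 82.7 to 91.7 TPM in NCAC and 57.1 to 69.6 in mock, and Bhlhe41 at 32.5 to 35.7 in NCAC and 22.5 to 29.0 in mock. Dbp overlapped, at 195, 213, 262, 278 and 245 TPM in NCAC and 120.0, 122, 124, 177 and 224 TPM in mock.

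The spread within NCAC at 2 wk was narrow for Tef and Hlf. It was less so for Dbp, at 239 ± 34.1 TPM, and for Ciart, at 34.3 ± 4.01 TPM (SD, n = 5 each). Tef averaged 225 ± 6.92 TPM in NCAC and 164 ± 22.5 in mock, and Hlf 86.1 ± 3.34 in NCAC and 63.4 ± 5.27 in mock (SD over 5 libraries each). Hlf was the 1 member called when only the groups compared entered the fit (adjusted p = 0.0305). Core clock genes at 2 wk were also without a call, with 7 of 13 higher and 2 lower by unadjusted p. The 4 with the smallest p were Cry2 (0.32 ± 0.07 SE), Per3 (0.43 ± 0.11), Nr1d2 (0.27 ± 0.08), a repressor at ROR elements, and Arntl (-0.45 ± 0.13). Arntl was at 34.4 to 37.7 TPM in NCAC and at 38.1 to 59.1 in mock.

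Glucocorticoid-responsive genes and choroid plexus markers moved with this comparison. Of the 16 glucocorticoid-responsive genes 0 passed the adjusted threshold in limma, and 5 were higher and 0 lower by unadjusted p (median 0.46), with list means of 5.26 to 5.80 in NCAC and 4.80 to 5.37 in mock. The list mean of the choroid plexus markers on the log2(TPM + 1) scale was 1.60, 5.40, 1.46, 5.32 and 1.66 in the 5 NCAC libraries at 2 wk, against 5.00, 5.45, 4.21, 3.32 and 5.41 in mock, so 3 NCAC libraries were low. With that mean as a covariate the log2 fold changes of the 6 members were all larger than without it, from 0.30 for Bhlhe40 to 1.00 for Ciart, and 0 passed the adjusted threshold in limma. The change of the NCAC against mock difference, 2 wk minus 8 wk, passed for 0 of 9 members and 0% of all genes, with 3 members and 5.06% of genes under an unadjusted p of 0.05. Those 3 were Hlf (0.40 ± 0.15), Bhlhe41 (0.28 ± 0.14) and Rorb (0.31 ± 0.11), each with an adjusted p of 0.888 in limma.

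CAC at 2 wk gave no call against either group. CAC against mock gave 0 of 9 members called and 0 of 9 under an unadjusted p of 0.05 in limma, with 0% and 4.84% of all genes. Against NCAC at the same week 0 of 9 members and 0% of genes were called, with 6 of 9 members lower by unadjusted p, against 2.71% of genes. They were Dbp (-0.59 ± 0.19 SE), Ciart (-0.69 ± 0.25), Tef (-0.32 ± 0.12), Hlf (-0.31 ± 0.11), Bhlhe41 (-0.25 ± 0.10) and Rora (-0.08 ± 0.04), with adjusted p from 0.611 to 0.722. All of these but Rora belong to the correlated members, so they do not count as separate results. The comparisons of CAC at 2 wk also share the NCAC and mock libraries of 2 wk with the ones above.

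At 4 wk 0 of 9 members passed in each of the 3 comparisons in limma, with 0.00694% of genes called in CAC against mock, 0% in NCAC against mock and 0.00694% in CAC against NCAC. Unadjusted, Bhlhe40 was under 0.05 in CAC against mock (0.24 ± 0.11 SE, adjusted p = 0.582) and Bhlhe40 (0.30 ± 0.11, adjusted p = 0.405) and Bhlhe41 (0.21 ± 0.10, adjusted p = 0.506) in CAC against NCAC, with 7.98% and 9.47% of genes. In NCAC against mock 0 of 9 were, with 2.13% of genes.

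At 6 wk no member was called. In CAC against mock 0 of 9 members were called, with 1.72% of genes, and in CAC against NCAC 0 of 9, with 9.45%. By unadjusted p, 2 of 9 members, Dbp and Bhlhe40, were under 0.05 in CAC against NCAC, a share no higher than the 25.9% of all genes. Dbp had the smallest p in CAC against mock at -0.50 ± 0.19 (SE; adjusted p = 0.153 in limma), the 1 member under an unadjusted 0.05 where 16.0% of genes were. It was at 137, 145, 80.8, 150.1 and 191 TPM in CAC, against 171, 228, 185, 185 and 193 TPM in mock. CAC replicate 3 was the lowest Dbp library of all 62, and without it the log2 fold change was -0.31 (adjusted p = 0.398), while other libraries left out gave -0.62 to -0.43. In NCAC at 6 wk Dbp was at 221, 192, 155, 177 and 206 TPM, and the log2 fold change of CAC over NCAC was -0.47 ± 0.19 (adjusted p = 0.0893 in limma), and -0.29 without CAC replicate 3 (adjusted p = 0.352). Tef was at 207 ± 20.3 TPM in CAC, 194 ± 16.3 in NCAC and 204 ± 15.8 in mock (SD over 5 libraries each), at 0.02 ± 0.12 against mock.

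Bhlhe40 at 6 wk was at 0.17 ± 0.11 in CAC against mock and at 0.23 ± 0.11 in CAC against NCAC (SE; adjusted p = 0.165 in limma), and with sample weights the second was called (0.31, adjusted p = 0.0179). Of the core clock genes 1 rose in CAC against mock, Npas2 (0.61 ± 0.16, adjusted p = 0.0279), a relative of Clock. Of the glucocorticoid list 5 of 16 rose and 0 fell in CAC against mock, and 9 rose and 0 fell in CAC against NCAC, where 4 of 6 oligodendrocyte markers fell. NCAC against mock at 6 wk called 0 of 9 members and 0% of genes, with 0 of 9 members and 8.35% of genes under an unadjusted p of 0.05.

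The ratio of Dbp to Tef, chosen after its values were seen and not tested, shows the same libraries on 1 scale. At 6 wk it was 0.607, 0.700, 0.429, 0.811 and 0.832 in CAC, against 1.04, 1.05, 0.891, 0.856 and 1.06 in NCAC and 0.943, 1.02, 0.937, 0.868 and 0.957 in mock. The CAC libraries lay below all others of that week. At 8 wk it ran from 0.519 to 0.946 in CAC, with a median of 0.705, against 0.831, 0.993, 0.819, 1.06 and 1.16 in NCAC and 1.07, 0.885, 1.07, 1.01 and 1.07 in mock. CAC replicate 3, at 0.946, was the 1 CAC library inside the range of mock, and the other 6 lay at or below 0.734. At 2 and 4 wk the 3 treatments overlapped. Ratios of Dbp to Hlf and to Ciart were also computed, and at 6 wk their CAC libraries overlapped the other groups. Dbp over Hlf was at 1.106 to 2.244 in CAC, 2.187 to 2.924 in NCAC and 1.962 to 2.695 in mock. Dbp over Ciart was at 3.783 to 6.556 in CAC, 6.221 to 8.392 in NCAC and 6.429 to 7.047 in mock.

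**Figure D3:**
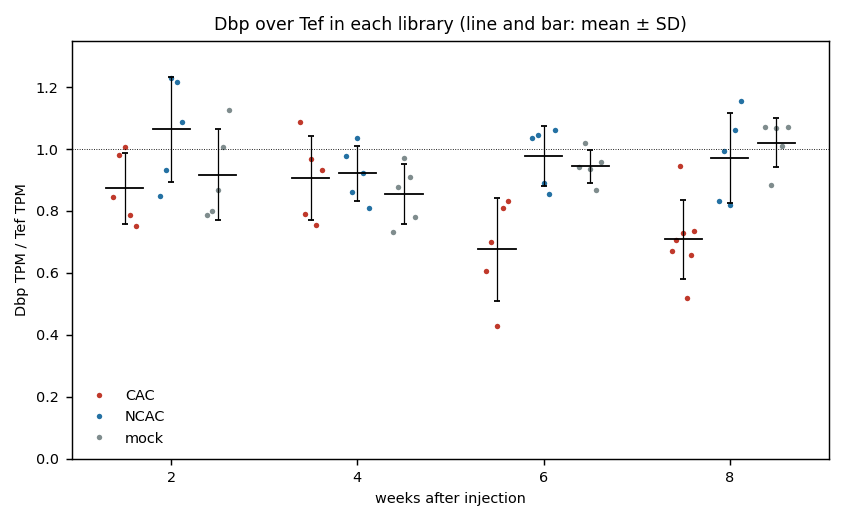
Ratio of Dbp TPM to Tef TPM in each library by weeks after injection, with CAC, NCAC and mock side by side and bars of mean ± SD. The CAC libraries lie at 0.429 to 0.832 at 6 wk and all but 1 lie at or below 0.734 at 8 wk, while mock lies at 0.868 to 1.02 and 0.885 to 1.07.

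In mock and in NCAC, no member passed the tests between weeks. Among the 4 weeks of mock 0 of 9 and 0% of genes were called in limma, with 2 of 9 and 7.17% under an unadjusted p of 0.05. These 2 were Hlf (adjusted p = 0.552) and Tef (adjusted p = 0.574). Hlf averaged 63.4 ± 5.27 TPM in mock at 2 wk, 73.4 ± 11.5 at 4 wk, 83.7 ± 6.69 at 6 wk and 71.2 ± 11.2 at 8 wk (SD, n = 5 each). In mock at 8 wk against 2 wk 0 of 9 and 0% were called in limma, with 0 of 9 and 8.41% under an unadjusted p of 0.05. In NCAC at 8 wk against 2 wk 0 of 9 members were called in limma, with 0.0486% of genes, and 3 of 9 and 13.6% were under an unadjusted p of 0.05. Of these Rorb had the smallest p (-0.27 ± 0.08 SE, adjusted p = 0.139). Its libraries were at 2.70, 2.87, 2.84, 2.72 and 3.04 TPM in NCAC at 8 wk, below all of NCAC at 2 wk, at 3.85, 3.44, 3.68, 3.53 and 3.53. Hlf stood apart in the same direction, so 2 of 9 members did, against 2.84% of genes.

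Within groups, 6 members moved together from library to library. After each group's mean was subtracted, the log2(TPM + 1) levels of Dbp, Tef, Hlf, Bhlhe40, Bhlhe41 and Ciart correlated in all 15 pairs over the 62 libraries, with Pearson's r from 0.521 to 0.917. These values describe libraries that share tissue, kit and scaling and whose hour of collection is unknown, and are given with no p. The highest was Ciart with Tef (r = 0.917, Spearman's rho = 0.915, and r = 0.925 without the 2 libraries farthest from the median of Ciart). Tef with Hlf had r = 0.845 (rho = 0.843), and Ciart with Bhlhe40 had r = 0.818 (rho = 0.836). The libraries that were high in mock at 8 wk (replicate 5) and in CAC at 2 wk (replicate 2) were thus high in several of these genes at once.

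Arntl ran the other way. Its r was -0.832 with Ciart (rho = -0.832), -0.823 with Dbp (rho = -0.82), -0.807 with Tef and -0.792 with Hlf. Clock had r from -0.82 with Tef to -0.689 with Hlf among these 4. The inhibitors of the loop, the Per and Cry genes, varied in their r with Dbp, Tef, Hlf, Bhlhe40, Bhlhe41 and Ciart. It ran from 0.158 for Cry1 with Bhlhe40 to 0.819 for Cry2 with Tef. Per2 had r = 0.815 with Hlf, but 0.375 with Dbp and 0.262 with Bhlhe40.

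**Figure D4:**
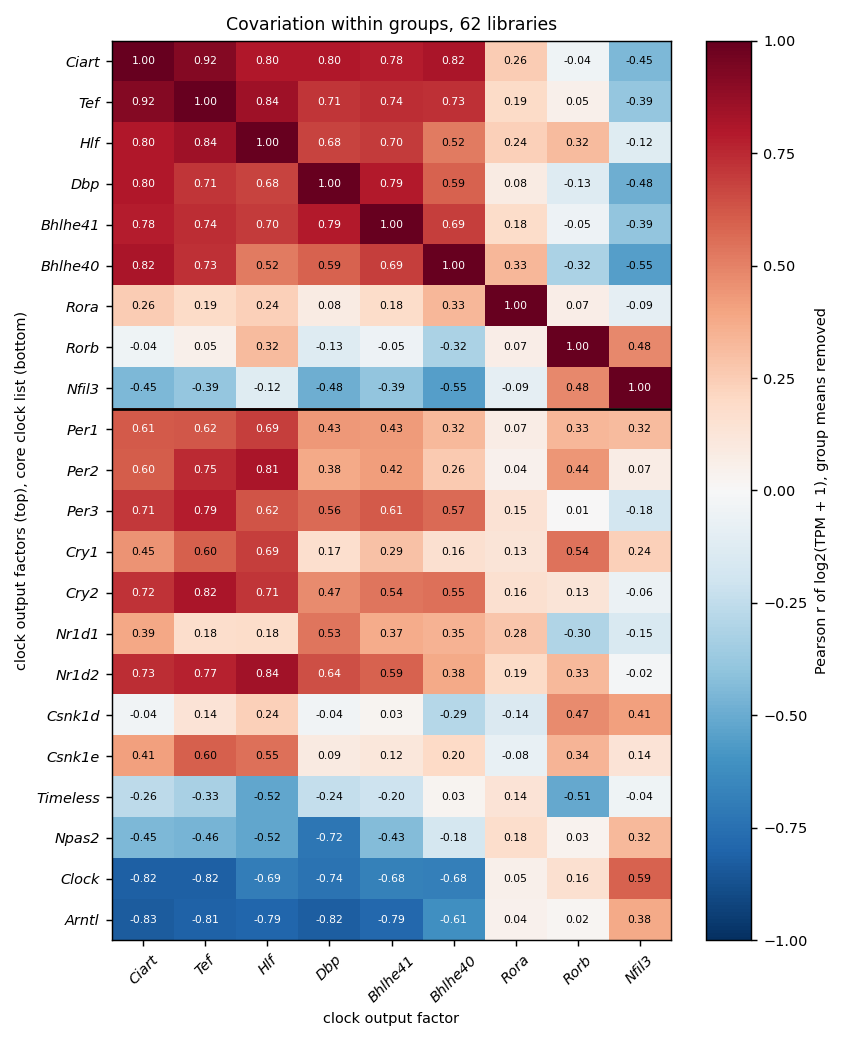
Pearson's r of distances from the group mean on the log2(TPM + 1) scale, over 62 libraries, for each of the 9 members (columns) with the members and 13 core clock genes (rows). Dbp, Tef, Hlf, Bhlhe40, Bhlhe41 and Ciart form a positive block from 0.521 to 0.917, the Arntl row is negative for them, and the column of Rora lies between -0.141 and 0.33 apart from itself.

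Nfil3, Rora and Rorb stood outside that block. Nfil3 had r = -0.547 with Bhlhe40 (rho = -0.54), -0.485 with Dbp (rho = -0.446) and -0.45 with Ciart, and 0.588 with Clock. Rora had r = 0.255 with Ciart (rho = 0.227) and 0.044 with Arntl, within a narrow range of its own. By treatment its r with Ciart was 0.526 over the 22 CAC libraries, 0.411 over the 20 NCAC and -0.212 over the 20 mock libraries, and these differences were not tested. Tef with Ciart was at 0.848 in CAC, 0.956 in NCAC and 0.962 in mock, and Arntl with Ciart at -0.757 in CAC, -0.892 in NCAC and -0.88 in mock. Rorb had r = 0.479 with Nfil3 (rho = 0.459, and 0.407 without 2 libraries), 0.544 with Cry1 and -0.04 with Ciart.

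**Figure D5:**
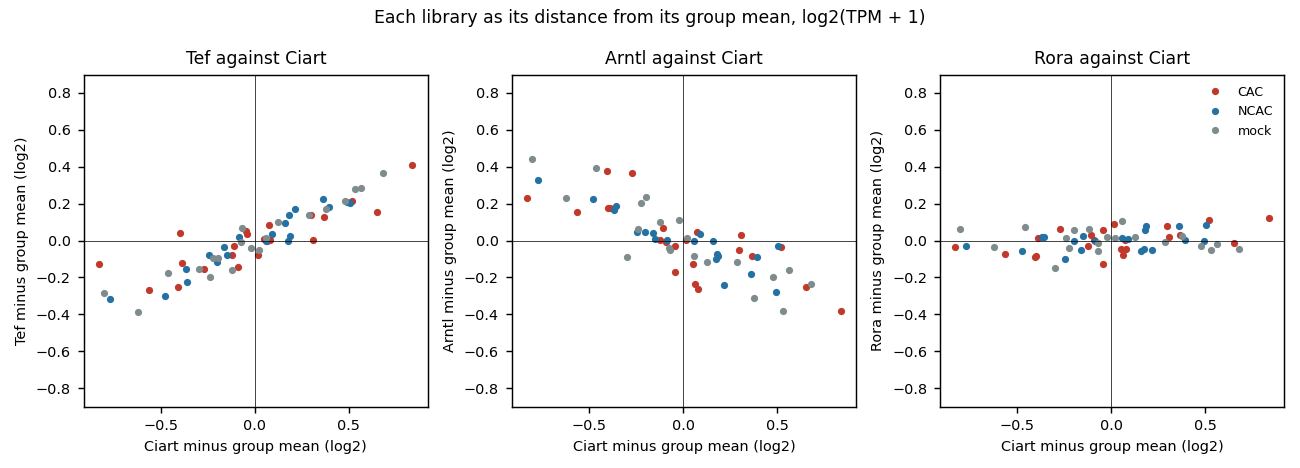
Distance of each library from its group mean on the log2(TPM + 1) scale for Tef, Arntl and Rora (y axes) against Ciart (x axis), coloured by treatment. Tef rises with Ciart (r = 0.917) and Arntl falls with it (r = -0.832), while Rora keeps within a narrow range (r = 0.255).

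Tested genes, less those with clone or pseudogene names, were ranked by how like each member's their distances from the group mean were. The 3 nearest genes included members for 6 of the 9. For Dbp they were Ciart (r = 0.804), Bhlhe41 (0.79) and Tef (0.715). For Tef they were Ciart, Hif3a (0.854) and Hlf, and for Ciart they were Tef, Mthfd1l (0.862) and Hif3a (0.819). Hif3a encodes an inhibitory member of the hypoxia-inducible factors and Mthfd1l a mitochondrial folate enzyme. For Hlf they were Tef, Nr1d2 (0.841) and Herpud1 (0.82), a gene of protein quality control in the endoplasmic reticulum. For Bhlhe41 they were Dbp, Ciart (0.783) and Mthfd1l (0.765).

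Bhlhe40 had Pik3ip1 (r = 0.854), an inhibitor of PI3 kinase, Ciart, and Klf9 (0.763), a transcription factor induced by glucocorticoids. Klf9 rose in CAC against mock at 8 wk, at 261 ± 32.7 TPM in CAC (SD, n = 7) and 195 ± 10.1 in mock (SD, n = 5), with 0.41 ± 0.07 on the log2 scale (SE, adjusted p = 8e-05 in limma), and its libraries did not overlap. The nearest genes of the other 3 members held no member. They were Siah2 (0.772), a ubiquitin ligase gene, Kcnk1 and Slc35e1 for Nfil3, Arl4a (0.766), Kcnd3 and March6 for Rora, and Sdcbp (0.762), Hacd3 and Amd1 for Rorb.

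Of the 9 members 5 overlap an exon of a gene on the opposite strand in GENCODE M21 (GRCm38). The kit marks strand, but whether the counting used it is not given in the sources used here. Dbp (chr7:45705088-45710203, plus strand) shares 539 exon bases with Sphk2, which averaged 21.6 TPM, and the r of their distances from the group mean was -0.578. Tef shares 193 with Gm17597 (11.4 TPM, r = 0.163) and Bhlhe40 118 with 0610040F04Rik (0.410 TPM). The partners of Bhlhe41 (Gm43909, 1280 shared bases) and Rora (Gm15511, 82) were listed at 0 in every library.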

How the data were processed

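RNA of 62 cerebellum libraries was extracted with Trizol, prepared with a TruSeq stranded mRNA kit and sequenced on an Illumina NovaSeq, per the labels' protocols. The authors deposited 1 table of TPM per gene symbol, and the build was mm10 per the submitters' processing notes. No source used here names the aligner, the quantifier or the annotation. TPM keep no sequencing depth and scale every library to the same total, so a gene that takes more of it lowers the others. Groups and replicate numbers came from the sample descriptions. The treatment field, which gives all samples cachectic cells, and a protocol phrase on LLC cells go against this design and were not used.

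Levels were analysed as log2(TPM + 1), for genes with a mean TPM of at least 1 (14399 of 47643 symbols, of which 23124 were at 0 in all libraries). Fold changes on this scale understate the change of low genes. All 12 groups were fitted together in limma 3.58.1 (R 4.3.3; eBayes with trend, 50 residual degrees of freedom, no covariate), with two-sided p-values adjusted by Benjamini-Hochberg over all tested genes of a comparison and a threshold of 0.05. The fit was tested on simulated data. For each member the 3 tested genes with the highest within-group correlation were named, with clone and pseudogene names left out. From each list up to 4 genes with the smallest p were named. The members and lists were chosen with earlier results of these data known, and some genes of the core clock list are not reported here. Replicate numbers were not used as pairs in the main fit. Same-numbered libraries had correlations of their distances from the group means of -0.239 to 0.396. In 0 of 12 comparisons were all pairs over 0.1. In CAC against NCAC same-numbered pairs averaged 0.157 at 2 wk and 0.147 at 4 wk, against -0.039 and -0.037 for other pairs. In the remaining comparisons same-numbered pairs averaged -0.104 to 0.057. Whether the numbers pair some libraries is thus not settled. Alternatives were another pseudocount, 2 other filters, 3 scalings, a replicate block, a choroid plexus covariate, sample weights, only the groups compared, and leaving out each library. Coordinates came from GENCODE M21 and promoter sequences from RefSeq.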

Additional observations from a re-analysis of the deposited data

Results flagged for a closer look

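Of the 108 groups of a member's values, 2 held a library far from the others by Dixon's criterion, where chance gives about 1 in 20. Ciart in CAC at 2 wk replicate 2 was at 38.0 TPM, with the next library at 21.8 and the lowest at 15.5. Tef, Hlf and Dbp were also highest of their group in that library. Ciart in mock at 6 wk replicate 2 was at 35.4 TPM, with the next at 28.4 and the lowest at 26.5.

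In 3 members the NCAC libraries lay on opposite sides of the mock mean in different weeks, and these differences between weeks were not tested except where a value is given. All NCAC libraries of Hlf were higher than the mock mean at 2 wk (86.1 ± 3.34 TPM in NCAC, 63.4 ± 5.27 in mock) and lower than the mock mean at 6 wk. For Ciart the same held, at 34.3 ± 4.01 TPM in NCAC and 18.0 ± 4.79 in mock at 2 wk (SD, n = 5 each). Rorb was higher in NCAC at 2 wk, at 3.61 TPM against 3.24 in mock, and at 6 wk, and lower at 8 wk, at 2.84 against 3.38 TPM. For Rorb the change from 8 to 2 wk was tested and did not pass (0.31 ± 0.11 SE, adjusted p = 0.888 in limma).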

How the results depend on the processing

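Log2 fold changes were recomputed only for members with an unadjusted p under 0.05 in limma in a comparison. None of these changed sign under an alternative, while the balance of calls over all genes did turn. Fold changes nearer to no change were not recomputed, so their signs were not checked. Ratios, correlations and gene lists were not recomputed. The number of members called in CAC against mock at 8 wk, 4, was 2 under quantile normalization, median-of-ratios scaling, a replicate block or without mitochondrially encoded genes, and 2 to 4 on leaving out 1 library. In NCAC against mock at 2 wk it was 1 and not 0 with only the groups compared, and in CAC against NCAC at 6 wk 1 and not 0 with sample weights. In CAC against NCAC at 8 wk it was 0 and not 1 with median-of-ratios scaling, without mitochondrially encoded genes, with a replicate block and with only the groups compared, and 0 to 1 on leaving out 1 library. In CAC at 8 wk against 2 wk it was 1 and not 2 with no filter, without mitochondrially encoded genes, with a replicate block, a choroid plexus covariate, sample weights or only the groups compared, and 1 to 5 on leaving out 1 library. The cause was not tested. The replicate block used numbers not shown to pair the libraries, and CAC replicates 6 and 7 at 8 wk had no partner. With this block Bhlhe40 was at 0.55 (adjusted p = 0.000746 in limma) and Tef at 0.42 (0.0162) in CAC against mock at 8 wk.

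Counts over all genes moved more. In CAC against mock at 8 wk they ran from 1648 to 3805 around 2990, at 6 wk from 0 to 629 around 248, in CAC against NCAC at 6 wk from 348 to 2624 around 1361 and at 8 wk from 685 to 2630 around 1695, and for the change from 2 to 8 wk from 34 to 722 around 223. In CAC at 8 wk against 2 wk they ran from 1359 to 2905 around 2575, in NCAC at 8 wk against 2 wk from 0 to 53 around 7, in mock at 8 wk against 2 wk from 0 to 58 and among the mock weeks from 0 to 51, both around 0. Calls in CAC against mock at 8 wk were 1933 higher and 1057 lower, but 1300 higher and 1807 lower without mitochondrially encoded genes, 1471 and 1657 after quantile normalization, and 1520 and 1497 after median-of-ratios scaling. Rorb was not tested at a mean of at least 5 TPM. TPM hold no depth, so counting error is unknown.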
